A study of Mus musculus with 17 samples.

Results

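The proteasome genes of the mouse were followed across CUT&RUN peak lists for STAG2, LIN54 and p130 in bladder lining with and without the Stag2 gene. They are the protein-coding genes whose symbol runs from Psma to Psmg followed by a digit, and 51 of the 21883 protein-coding genes of the table have such a symbol. Of these, 49 were listed here as encoding a subunit, a regulator or an assembly chaperone of the proteasome. Psmc3ip and Psme3ip1, which were not listed, are named after a proteasome gene whose product they interact with. CUT&RUN maps where a protein sits by sequencing the short fragments that an antibody-guided nuclease cuts free around it, and it was done on urothelium peeled from mouse bladders, with about 500000 cells per condition. The animals were Stag2-WT (WT below) or Stag2-KO (KO below), and both were sampled 1 week after TMX induction, so that the controls had been induced too. The recombinase and the promoter that drove it are not given in the sources used here, nor is the age of the animals. STAG2 is a subunit of the cohesin ring, LIN54 contacts DNA on behalf of the MuvB core, and p130 is a pocket protein that joins MuvB to form DREAM, which keeps cell cycle genes silent in quiescence. STAG2 was profiled in 2 WT libraries and 2 KO libraries. LIN54 had 3 and 2, and p130 had 3 and 3. The labels call all of them biological replicates, without saying whether each was a separate animal. The second STAG2-WT library is number 2 in its title but number 3 in its library name, and it is called replicate 2 here, after the title.

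The proteasome is the cell's main machine for destroying proteins tagged with ubiquitin. Its core particle is a barrel of outer alpha rings and inner beta rings, and some of the beta subunits hold the proteolytic sites. A regulatory particle caps the barrel: its ATPases unfold the substrate and its non-ATPase subunits bind, deubiquitinate and position it. Interferon-induced beta subunits replace their constitutive partners in the immunoproteasome, activators open the barrel without ubiquitin, and dedicated chaperones put the particles together. Proteasome genes are expressed in nearly all cells and are not counted among the classical DREAM targets, which DREAM binds through CHR elements (LIN54) and E2F sites.

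A gene was counted as having a peak when the summit of a peak fell no more than 500 bp from either end. The lists hold 286079 to 539191 peaks per library with p up to 0.05, so most peaks in them are weak, and counts are therefore given for the deposited peaks and for those with q of 0.01 or less, of which there were 316 to 25859 per library. The median background per library was 1.5 to 2.53 fragments per base, recovered from the fold and the p of the summits, so a weak peak can rest on as few as 3 fragments and an unlisted peak was not detectable at this depth. The STAG2-KO libraries held 1239 and 6777 peaks at q 0.01 against 25859 and 13346 in STAG2-WT. How complete the loss of STAG2 was in the peeled tissue was not measured, so remaining STAG2 and background of the antibody cannot be told apart in the KO peaks. The p130-WT replicate 1 library stood apart from the other p130 libraries, with the most peaks of all 15 (539191) and 5.98% of them on the X chromosome, against 0.31% to 0.465% in the other 5. The luminal urothelium list had 9 of 14 genes with a STAG2 peak in every WT library (against 35.0% of all genes), 5 of them at q 0.01 (against 12.6%), which were Upk1a, Upk2, Upk3b, Krt8 and Krt19. No gene of the basal (7 genes), fibroblast, smooth muscle, immune or endothelial lists (6 each) had a STAG2 peak at q 0.01 in every WT library. Lists this short can hold 0 at a share of 12.6%. Deposited peaks in both were listed for Cd44 and Itga6 of basal cells (2 of 7) and Col1a1, Col1a2 and Col3a1 of fibroblasts (3 of 6). Cd68 of immune cells and Pecam1 of endothelium (1 of 6 each) also had them, against 35.0% of all genes. At q 0.01 the luminal list had 1 of 14 genes in every STAG2-KO library (against 1.89%) and 0 of 14 in every LIN54-WT library (against 4.71%). A peak at a gene's end is not a measure of its expression.

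The promoters below show the stretch of DNA on which the main results rest, from 250 bases before to 50 bases after the RefSeq start site (GRCm38.p6, the assembly of mm10), read 5′ to 3′ along the gene. Psmc4 is the gene with peaks in every library, Psmb3 the core gene with strong peaks in most libraries and Psmc6 an ATPase gene with high STAG2 folds. Psmb9 is the gene whose promoter holds the only match to the E2F letters searched, and Psmg3 a gene with almost no peaks. Capitals mark matches to the motifs listed after them. Psmc4 lies at chr7:28050043-28050342 on the minus strand, Psmb3 at chr11:97703184-97703483 on the plus strand, Psmc6 at chr14:45329574-45329873 on the plus strand, Psmb9 at chr17:34187281-34187580 on the minus strand and Psmg3 at chr5:139826845-139827144 on the minus strand.
Psmc4: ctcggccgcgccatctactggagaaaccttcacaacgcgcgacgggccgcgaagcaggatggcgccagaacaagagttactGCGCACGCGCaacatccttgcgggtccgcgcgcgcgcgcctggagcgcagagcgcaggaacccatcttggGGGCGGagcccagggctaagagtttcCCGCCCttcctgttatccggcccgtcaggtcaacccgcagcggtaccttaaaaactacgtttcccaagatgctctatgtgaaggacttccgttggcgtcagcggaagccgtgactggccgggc
Psmb3: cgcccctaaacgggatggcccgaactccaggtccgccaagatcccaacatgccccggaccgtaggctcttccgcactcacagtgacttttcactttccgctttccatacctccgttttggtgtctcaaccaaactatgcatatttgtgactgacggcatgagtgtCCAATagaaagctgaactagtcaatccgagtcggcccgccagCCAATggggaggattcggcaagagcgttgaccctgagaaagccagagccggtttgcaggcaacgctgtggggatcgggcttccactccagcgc
Psmc6: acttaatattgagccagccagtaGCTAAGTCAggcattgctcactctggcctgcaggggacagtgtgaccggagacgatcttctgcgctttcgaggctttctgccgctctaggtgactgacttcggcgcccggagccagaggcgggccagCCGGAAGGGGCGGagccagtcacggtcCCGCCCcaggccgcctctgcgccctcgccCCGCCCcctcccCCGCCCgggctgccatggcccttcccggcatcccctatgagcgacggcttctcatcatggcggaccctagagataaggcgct
Psmb9: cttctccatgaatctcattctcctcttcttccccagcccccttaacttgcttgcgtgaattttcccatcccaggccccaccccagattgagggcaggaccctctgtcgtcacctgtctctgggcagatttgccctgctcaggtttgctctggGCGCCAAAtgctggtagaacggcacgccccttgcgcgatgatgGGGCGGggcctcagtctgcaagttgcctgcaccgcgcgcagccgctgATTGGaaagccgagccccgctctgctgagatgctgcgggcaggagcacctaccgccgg
Psmg3: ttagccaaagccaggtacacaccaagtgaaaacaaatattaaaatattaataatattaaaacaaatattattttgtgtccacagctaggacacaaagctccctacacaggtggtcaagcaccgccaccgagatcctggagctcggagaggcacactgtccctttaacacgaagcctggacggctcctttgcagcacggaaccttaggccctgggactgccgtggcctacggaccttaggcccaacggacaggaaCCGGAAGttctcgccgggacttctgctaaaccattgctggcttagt

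Of the 51 genes, 43 had a promoter in the RefSeq table, as had 17491 genes in all. The letters were searched on both strands. The CHR (TTTGAA or TTCGAA) was found in 4 of 43 promoters (9.3%, against 20.2% of all promoters), those of Psmd1, Psmd8, Psmd10 and Psme3ip1, and in Psme3ip1 at the start site farther from its peaks. An E2F site (TTTGGCGC or TTTCGCGC) was found in 1 of 43 (2.33%, against 1.21%), the GCGCCAAA of Psmb9 that starts 98 bases before the start site. Other forms of the E2F site were not searched, so these counts do not show that a promoter lacks such a site. Among those forms is TTTCCCGC, which the printed Psmc4 promoter holds (tttcCCGC), and its share of all promoters was not computed. The ETS motif CCGGAAG was found in 16 of 43 promoters (37.2%, against 12.9%), among them Psmc6 and Psmg3, and the NRF1 motif in 7 of 43 (16.3%, against 7.17%), among them Psmc4, where it starts 169 bases before the start site. The GC box GGGCGG was in 24 (55.8%, against 49.2%), the CCAAT box in 16 (37.2%, against 42.3%) and the antioxidant response element TGACNNNGC in 6 (14%, against 14.8%). The YY1 motif AAGATGGC was in 3 (6.98%, against 3.57%), the AP-1 motif TGACTCA in 1, Psmd9 (2.33%, against 5.4%), and the CRE TGACGTCA in 0 (against 2.54%). The last 2 motifs and the antioxidant element share the letters TGAC, so that a TGACTCA followed by GC counts for both of those. The median GC content was 57.3% in these promoters and 56.3% in all. Matches are letters in a window and were not tested as binding sites.

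Peaks at proteasome genes were widespread. Of the 765 gene and library pairs, 491 had a deposited peak. A proteasome gene had a peak in a median of 10 of 15 libraries, against 6 over all genes, and 42 of 51 (82.4%) had one in 8 libraries or more, against 40.1% of all genes. At q 0.01 the median was 2 libraries, against 0, and 8 of the 51 genes (15.7%) had no such peak in any library, against 58.7% of all genes. The 51 genes had the higher share in all 15 libraries for deposited peaks and in 14 of 15 at q 0.01, the exception being p130-KO replicate 1 with 1.96% against 2.12%. Of the 51 genes, 21 have an end of another protein-coding gene within 1000 bp, and a peak between such ends belongs to neither gene alone.

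**Figure D1:**
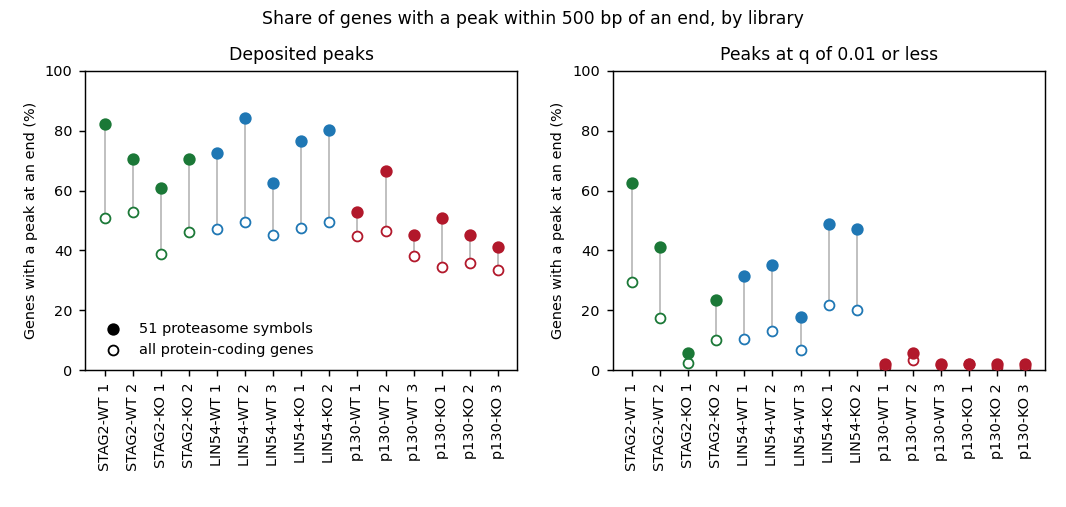
Percent of genes with a peak within 500 bp of an end in each of the 15 libraries (x axis), for the 51 proteasome symbols (filled points) and all 21883 protein-coding genes (open points), with deposited peaks on the left and peaks of q 0.01 or less on the right. The filled points lie between 41.2% and 84.3% on the left; on the right the STAG2 and LIN54 libraries reach 62.7% and 49.0%, and the p130 libraries stay at or below 5.88%.

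By antibody, a deposited STAG2 peak was present in every WT library at 30 of 51 genes (58.8%, against a background of 35.0% of all genes) and in every KO library at 25 (49.0%, against 25.5%). At q 0.01 these counts were 16 (31.4%, against 12.6%) and 3 (5.88%, against 1.89%), the last being Psma1, Psmd8 and Psme2. A LIN54 peak was present in every WT library at 26 genes (51%, against 23.8%) and in every KO library at 34 (66.7%, against 35.5%), and at q 0.01 at 8 (15.7%, against 4.71%) and 19 (37.3%, against 15.8%). The 8 were Psmb3, Psmb9, Psmc4, Psmc6, Psmd3, Psmd4, Psmd8 and Psme3ip1. All 8 also had LIN54 peaks at q 0.01 in both KO libraries, so they make up the 8 genes marked in all 5 LIN54 libraries (against 4.58%), and for deposited peaks that number was 22 (against 19.7%). A p130 peak was present in every WT library at 12 genes (23.5%, against 14.3%) and in every KO library at 6 (11.8%, against 8.88%). At q 0.01 only Psmc4 had a p130 peak in every WT library (against 0.759%) and in every KO library (against 0.681%). Single libraries set some of these counts: at q 0.01, the STAG2-WT count was 32 without replicate 2, the STAG2-KO count 12 without replicate 1 and the LIN54-WT count 14 without replicate 3. For deposited peaks, the p130-WT count was 21 without replicate 3 and 18 without replicate 1, and the p130-KO count 13 without replicate 2 or replicate 3. Here and below, the share of all genes was not computed for counts with a library left out. Since a peak at either end counts, the best summits of a gene's libraries need not lie at one site. They were split between the 2 ends in 1 of the 30 STAG2-WT genes, 2 of the 25 STAG2-KO genes, 5 of the 26 LIN54-WT genes, 2 of the 34 LIN54-KO genes, 2 of the 12 p130-WT genes and 4 of the 6 p130-KO genes.

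**Figure D2:**
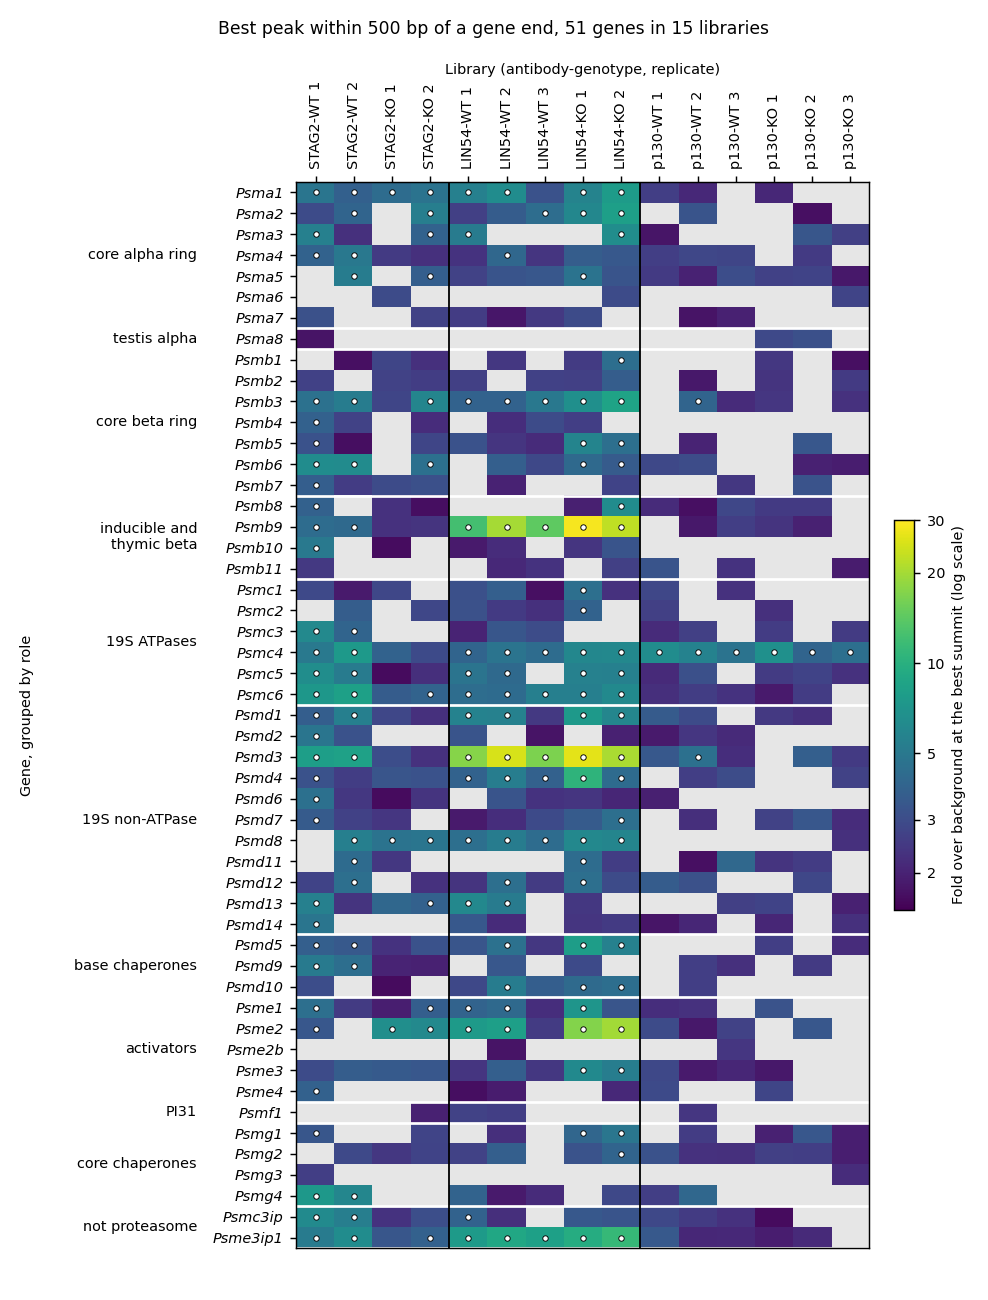
Fold over background at the best summit within 500 bp of an end for each of the 51 genes (rows, grouped by role) in each of the 15 libraries (columns), on a log colour scale. Grey cells have no listed peak and white dots mark q of 0.01 or less; Psmc4 is filled in all 15 columns, and Psmb9 and Psmd3 hold the brightest cells, in the 5 LIN54 columns, at 12.3 to 28.8 and 16.7 to 26.6.

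The alpha rings form the gate of the core particle. Of the 7 alpha genes, 4 had a STAG2 peak in every WT library (Psma1, Psma2, Psma3 and Psma4; against 35.0% of all genes) and 5 a LIN54 peak in every WT library (Psma1, Psma2, Psma4, Psma5 and Psma7; against 23.8%). Their median was 10 libraries per gene, against 6 over all genes. Psma1 was the strongest, with q 0.01 in 8 of 15 libraries. A fold is the authors' ratio of the fragments at the summit to the local background in that library, with 1 added to both. Folds also differed between libraries as a whole. Over all genes with a peak, the median LIN54 fold was 2.72, 2.97 and 2.62 in WT and 3.31 and 3.25 in KO. For STAG2 it was 3.54 and 2.99 in WT and 2.48 and 2.67 in KO. The part of these shifts in the genotype orders of single genes, here and below, was not tested. The STAG2 folds of Psma1 were 4.79 and 3.75 in WT and 4.32 and 4.7 in KO, so that the KO values lie within the range of WT. Its LIN54 folds were 5.54, 6.46 and 3.18 in WT and 5.72 and 7.79 in KO, and the groups overlap. Psma5 had a peak in all 6 p130 libraries, but at folds of 1.81 to 3.05 from 4 to 8 fragments, none at q 0.01, and the summit of KO replicate 1 lay 23494 bp past the start site, at the other end of the gene from the other 5. Psma6 was the alpha gene with fewest peaks, in 3 libraries and none at q 0.01, when counted from the ends in the gene table; RefSeq gives it a second start site, and over both start sites it had peaks in 6 libraries, 2 of them at q 0.01. For Psma3 the RefSeq start site lies 5340 bp inside the table's gene, and at that start site there were peaks in 10 libraries and 7 at q 0.01, against 8 and 4 at the table's ends. Psma8, the testis alpha subunit, had peaks in 3 libraries, with folds of 1.76, 2.9 and 3.13 and none at q 0.01.

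The 7 constitutive beta genes include the catalytic subunits encoded by Psmb5, Psmb6 and Psmb7. Psmb3, which encodes a non-catalytic beta subunit, led them with q 0.01 in 9 libraries. Its STAG2 folds were 4.58 and 5.26 in WT and 2.81 and 5.86 in KO, with no separation of the genotypes. Its LIN54 folds were 3.86, 3.87 and 4.95 in WT and 6.65 and 8.56 in KO, so both KO values were above all 3 WT values, and the summits at q 0.01 lay 93 to 211 bp before the start site. In p130 it was listed in 4 of 6 libraries, with folds of 2.18 to 3.96. Psmb6 had STAG2 folds of 6.44 and 6.38 in WT and 4.55 in KO replicate 2, with no listed peak in KO replicate 1. Psmb5 and Psmb6 had LIN54 peaks at q 0.01 in both KO libraries (5.77 and 4.49, and 4.19 and 3.55) and in none of the WT libraries, where their listed folds were 2.18 to 3.2 for Psmb5 and 3.72 and 2.87 for Psmb6. Psmb4 had peaks in the fewest libraries, 6, with none for p130 and 1 at q 0.01, and Psmb2 was the constitutive beta gene with no peak at q 0.01, with 10 libraries and folds up to 3.61.

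Of the inducible and thymic beta genes, Psmb9 stood apart. Psmb9 encodes an immunoproteasome subunit and shares its start region with Tap1, a peptide transporter gene whose end lies 226 bp away. Its LIN54 folds were 12.3, 20.1 and 14.3 in WT and 28.8 and 22.6 in KO, with 48 to 62 fragments in WT and 83 and 105 in KO against a background of 2.13 to 3.15. Both KO values were above the WT values, and the within-library percentiles of these summits among all genes with a peak were 99.2 to 99.8 in the 5 libraries. The summits lay 173 to 295 bp before the start site, in or beyond the gap to Tap1. In p130 libraries the gene was listed in 4 of 6, with folds of 1.81 to 2.6 and none at q 0.01. The STAG2 folds were 4.34 and 4.18 in WT and 2.31 and 2.36 in KO, and the groups do not overlap. Psmb8, the neighbouring immunoproteasome gene, had listed LIN54 peaks in both KO libraries (1.96 and 6.41) and in no WT library, but the 2 summits lay at opposite ends, 3135 bp apart, and 1 of them at the start site. It was listed in 10 libraries at either end and in 5 at its start site. Psmb10, the third inducible subunit gene, had 6 libraries with folds of 1.65 to 5.04 and q 0.01 in STAG2-WT replicate 1 alone. Psmb11, the thymus-specific subunit gene, had 7 libraries, none at q 0.01, and only 1 at its start site.

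Among the 6 ATPase genes, Psmc4 had a peak in every library. It was the only one of the 51 genes with a deposited peak in all 15 libraries (1.96%, against 1.92% of all genes), and no gene of the 51 had q 0.01 in all 15 (against 0.142%). Its p130 folds were 6.47, 5.67 and 4.68 in WT and 6.76, 3.95 and 4.47 in KO, from 15 to 24 fragments, and all 6 reached q 0.01. The genotypes overlap, with WT at a mean of 5.61 ± 0.898 (SD, n = 3) and KO at 5.06 ± 1.5 (SD, n = 3). The p130-WT library of batch 2 (6.47) was above both WT libraries of batch 3 and below the highest KO library of batch 3 (6.76). The percentile of the Psmc4 summit among genes with a p130 peak was 97.0 to 99.2. For deposited peaks, Psma5, Psmc4 and Psmg2 were the 3 genes of the 51 with p130 peaks in all 6 libraries (against 3.83%), and Psmc4 was the 1 whose 6 summits lay at a single end and the 1 at q 0.01 (against 0.512%). Its STAG2 folds were 5.03 and 7.48 in WT and 3.86 and 2.95 in KO, where neither reached q 0.01. Its LIN54 folds were 3.94, 4.76 and 4.35 in WT and 5.98 and 6.04 in KO. All 15 summits lay 4 to 166 bp before the start site, within the promoter printed above, and no other protein-coding gene has an end within 1000 bp.

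Psmc6 had the same order in STAG2, with 7.36 and 8.2 in WT and 3.59 and 3.88 in KO, and LIN54 folds of 4.38, 4.3 and 5.48 in WT and 5.44 and 6.19 in KO, which overlap. Its p130 folds were 1.87 to 2.58 in 5 libraries, none at q 0.01. Psmc5, 101 bp from Ftsj3, had STAG2 folds of 6.51 and 5.24 in WT and 1.64 and 2.24 in KO. Psmc3 had STAG2 folds of 6.11 and 3.95 in WT and no listed peak in KO. It also had LIN54 peaks in all 3 WT libraries (2.02, 3.35 and 3.01) and in neither KO library, though none of these reached q 0.01, and 2 of the summits lay at one end of the gene and 1 at the other, with 5331 bp between the outermost. Psmc1 and Psmc2 reached q 0.01 in 1 library each, LIN54-KO replicate 1. Psmc2 has 2 start sites in RefSeq, and over both it was listed in 11 libraries and 3 at q 0.01.

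**Figure D3:**
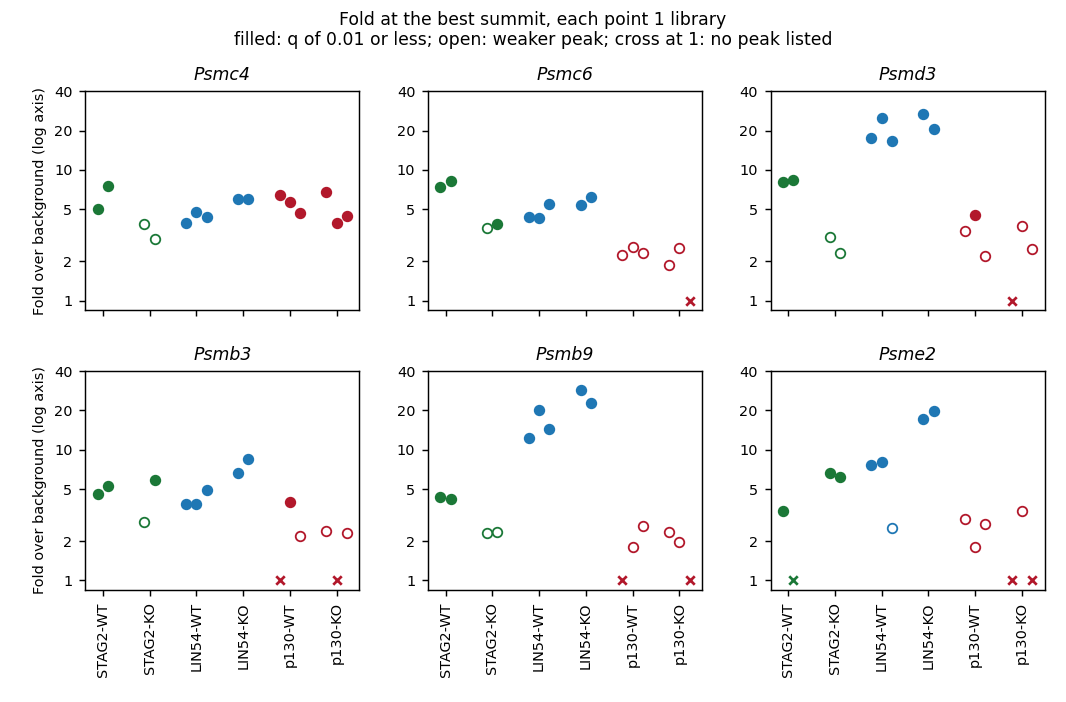
Fold at the best summit (log axis) for Psmc4, Psmc6, Psmd3, Psmb3, Psmb9 and Psme2 in each library, by antibody and genotype (x axis); each point is 1 library, filled at q of 0.01 or less, open when weaker and a cross at 1 when no peak was listed. Psmd3 and Psmb9 reach 26.6 and 28.8 in LIN54, and Psmc4 is filled in all 6 p130 libraries.

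The 11 non-ATPase genes of the regulatory particle had a median of 10 libraries per gene, against 6 over all genes. Psmd3, which encodes a subunit of the lid, had LIN54 folds of 17.5, 24.9 and 16.7 in WT and 26.6 and 20.4 in KO, from 51 to 97 fragments against 1.69 to 2.72 of background. The genotypes overlap, with WT at a mean of 19.7 ± 4.54 (SD, n = 3) and KO at 23.5 ± 4.39 (SD, n = 2), and the percentiles were 99.4 to 99.9. No other protein-coding gene has an end within 1000 bp of Psmd3, and the LIN54 summits lay 136 to 172 bp outside the table's end. The STAG2 folds were 8.04 and 8.31 in WT and 3.06 and 2.31 in KO, and the KO values did not reach q 0.01. In p130 it was listed in 5 of 6 libraries at 2.21 to 4.52, and reached q 0.01 in WT replicate 2 alone.

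Psmd8, another lid subunit gene, had q 0.01 in 8 libraries and, unlike Psmd3, in both STAG2-KO libraries. Its STAG2 folds were 5.45 in WT replicate 2, with no listed peak in WT replicate 1, and 4.69 and 4.78 in KO. Its LIN54 folds were 4.46, 5.29 and 4.34 in WT and 6.06 and 5.84 in KO, so both KO values were above the WT values. The mean within-library percentile of these summits went the other way, with 87.1 in WT and 81.9 in KO. All summits of Psmd8 lay at its 5′ end, where Catsperg1 has an end within 1000 bp. The end of Ggn is 249 bp from the other end of Psmd8. Psmd4, a ubiquitin receptor, reached q 0.01 in all 5 LIN54 libraries, with folds of 3.87, 5.36 and 3.81 in WT and 10.5 and 4.28 in KO. Psmd1, which encodes a large subunit of the base, had STAG2 folds of 3.66 and 5.49 in WT and 2.85 and 2.26 in KO, and its q 0.01 summits lay 38 to 120 bp before the start site. Psmd2, the gene of the other large base subunit, was listed in both STAG2-WT libraries (4.83 and 3.2) and in no KO library. It was also the 1 gene with a p130 peak in every WT and no KO library, at folds of 1.86, 2.42 and 2.14 from 4 or 5 fragments. The RefSeq start site of Psmd2 lies 530 bp inside the table's gene, and neither call held there: 1 of 2 STAG2-WT libraries had a peak at that site, and p130 peaks were listed there in 3 WT libraries and 1 KO library. Psmd11 had LIN54 peaks in both KO libraries (4.32 and 2.59) and in no WT library, and Psmd14, the deubiquitinase, reached q 0.01 in 1 library.

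The base of the regulatory particle is assembled with the help of Psmd5, Psmd9 and Psmd10. Psmd5 was listed in 11 libraries, with STAG2 folds of 3.72 and 3.48 in WT and 2.32 and 3.2 in KO, and LIN54 folds of 3.3, 4.6 and 2.44 in WT and 7.97 and 5.62 in KO. Psmd9 had STAG2 folds of 5.17 and 4.44 in WT and 2.03 and 1.98 in KO. Psmd10, which encodes gankyrin, is the 1 gene of the 51 on the X chromosome, where the share of peaks was 1.0% to 2.42% in STAG2-WT, 0.259% to 0.436% in STAG2-KO, 3.16% to 5.09% in LIN54-WT and 0.486% to 0.744% in LIN54-KO libraries. For p130 it was 5.98%, 0.44% and 0.465% in WT and 0.31% to 0.33% in KO. It was listed in all 5 LIN54 libraries at 2.86, 5.26 and 3.66 in WT and 4.24 and 4.44 in KO, and the part that the X share has in its values was not tested.

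Among the 5 activator genes, Psme1 and Psme2 encode the subunits of the interferon-induced PA28 activator. Psme2 had LIN54 folds of 7.69, 8.12 and 2.52 in WT and 17.3 and 19.8 in KO, from 10 to 31 fragments in WT and 47 and 52 in KO. Both KO values were above all WT values, and WT replicate 3 stood below the other 2. That library had the fewest q 0.01 peaks of the LIN54 libraries (2166), and its part in the low value was not tested. The STAG2 folds were 3.37 in WT replicate 1, none listed in WT replicate 2, and 6.6 and 6.17 in KO, at percentiles of 97.3 and 99.5. This is the reverse of the order at Psmc4, Psmc6 and Psmd3. Rnf31 has an end 612 bp away, and the summits at q 0.01 lay 89 to 227 bp before the start site. Psme1 was listed in 12 libraries, with LIN54 folds of 3.91, 4.17 and 2.22 in WT and 7.16 and 3.29 in KO. Its summits all lay at its 5′ end, and Emc9 is 8 bp from its other end. Psme3, the PA28 gamma gene, was listed in all libraries but p130-KO replicates 2 and 3, and reached q 0.01 in LIN54-KO alone (6.24 and 5.33, against 2.38, 3.72 and 2.45 in WT). Psme4, which encodes PA200, was listed in 6 libraries and Psme2b, a near copy of Psme2 with which reads may be shared, in 2.

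Psmf1, which encodes the regulator PI31, was listed in 4 libraries at folds of 1.98 to 2.72, and its RefSeq start site lies 2889 bp from the nearest table end. At that start site it was also listed in 4 libraries, none at q 0.01. The core assembly chaperones Psmg1 to Psmg4 differed widely. Psmg4 had STAG2 folds of 7.39 and 5.94 in WT, from 22 and 13 fragments, and no listed peak in either KO library. Psmg1 reached q 0.01 with LIN54 in both KO libraries (4.02 and 4.87) and in no WT library, where 1 of 3 was listed, at 2.24. Psmg2 was listed in 13 libraries and in all 6 of p130, at 1.92 to 3.18, with 4 of these summits at one end and 2 at the other, up to 12737 bp apart, and an end of Cep76 lies 232 bp away. Psmg3, whose promoter is printed above, was listed in 2 libraries only, at 2.6 and 2.19.

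The 2 genes not listed under a proteasome role had peaks in 14 and 12 libraries. Psme3ip1, 21 bp from Rspry1, had LIN54 folds of 7.71, 8.92 and 8.25 in WT and 9.61 and 11.1 in KO and q 0.01 in all 5. Both KO values were above the WT values, while the mean within-library percentile was 97.9 in WT and 96.4 in KO. Its STAG2 folds were 5.21 and 6.45 in WT and 3.35 and 3.79 in KO. Psmc3ip, a meiotic recombination factor, had STAG2 folds of 6.26 and 5.42 in WT and 2.32 and 3.07 in KO. These STAG2 summits lay at its 5′ end, where Retreg3 has an end within 1000 bp, and Mlx is 66 bp from its other end. Without Psme3ip1 and Psmc3ip, none of the counts of genes marked in every library changed by more than 1.5 times.

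Between genotypes, fewer of the 51 genes had a STAG2 peak and more had a LIN54 peak in KO at the stricter threshold, and the same order was seen over all genes. With q 0.01, the share of the 51 genes with a STAG2 peak was 62.7% and 41.2% in WT and 5.88% and 23.5% in KO, with means of 52.0% ± 15.3 (SD, n = 2) against 14.7% ± 12.5 (SD, n = 2), and the groups do not overlap. Over all genes it was 23.4% ± 8.37 (SD, n = 2) against 6.14% ± 5.35 (SD, n = 2), a difference of -17.2 percentage points (two-sided exact permutation test, p = 0.333, adjusted p = 0.5, and 0.333 is the smallest p that 2 against 2 libraries allow). For deposited peaks the share of the 51 genes was 76.5% ± 8.32 (SD, n = 2) for WT against 65.7% ± 6.93 (SD, n = 2) for KO, and all genes differed by -9.41 percentage points (exact permutation p = 0.333, adjusted p = 0.4). At q 0.01, 11 genes had a STAG2 peak in every WT and no KO library (21.6%, against 6.19% of all genes): Psma4, Psmb9, Psmc3, Psmc3ip, Psmc4, Psmc5, Psmd1, Psmd3, Psmd5, Psmd9 and Psmg4. The reverse held for 0 of 51 (against 0.032%). Of the 11 genes, all but Psmc3 and Psmg4 still had a weaker STAG2 peak listed in both KO libraries. For deposited peaks, Psmc3, Psmd2 and Psmg4 had peaks in every WT and no KO library (3 genes, against 6.43%), and 0 the reverse (against 2.03%). The count of 11 became 23 without WT replicate 2. The count of 3 became 8 without WT replicate 2, 5 without KO replicate 1 and 9 without KO replicate 2, and the count of 0 became 3 without either WT replicate and 1 without either KO replicate. Of the 3 genes, Psmg4 kept the pattern at its RefSeq start site, Psmd2 did not, and Psmc3 has no start site in the promoter table.

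For LIN54 the shares at q 0.01 were 31.4%, 35.3% and 17.6% in WT and 49.0% and 47.1% in KO, or 28.1% ± 9.27 (SD, n = 3) against 48.0% ± 1.39 (SD, n = 2), without overlap. Over all genes they were 10.1% ± 3.2 (SD, n = 3) and 20.8% ± 1.13 (SD, n = 2), a difference of 10.7 percentage points (exact permutation p = 0.1, the smallest that 3 against 2 libraries allow, adjusted p = 0.3). For deposited peaks the 51 genes had 73.2% ± 10.8 (SD, n = 3) and 78.4% ± 2.77 (SD, n = 2), which overlap, and all genes differed by 1.25 percentage points (exact permutation p = 0.4, adjusted p = 0.4). That difference was -0.715 with a window of 1000 bp, 0.251 without WT replicate 3 and 0.158 without KO replicate 2. Psmb5, Psmb6, Psme3 and Psmg1 had LIN54 peaks at q 0.01 in every KO and no WT library (4 genes, 7.84%, against 3.99%), and 0 the reverse (against 0.0183%). The count of 4 became 8 without either KO replicate, 6 without WT replicate 2 and 5 without WT replicate 3. For deposited peaks, Psmb8 and Psmd11 had peaks in every KO and no WT library (2 genes, against 2.04%), and Psmc3 the reverse (1 gene, against 1.38%). The count of 2 became 4 without WT replicate 2, and the count of 1 became 3 without KO replicate 1 and 2 without KO replicate 2 or WT replicate 3. Psmd11 kept the pattern at its start site and Psmb8 did not.

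For p130 the shares with deposited peaks were 52.9%, 66.7% and 45.1% in WT and 51%, 45.1% and 41.2% in KO, which overlap, and at q 0.01 they were 1.96%, 5.88% and 1.96% against 1.96% in each KO library. Over all genes the deposited share differed by -8.65 percentage points between KO and WT (exact permutation p = 0.1, adjusted p = 0.3). At q 0.01 the difference was -0.568 (exact permutation p = 0.5, adjusted p = 0.5). Psmd2 was the 1 gene with deposited p130 peaks in every WT and no KO library (against 2.42%), and the reverse held for 0 (against 0.855%). The count of 1 became 2 without any 1 WT replicate and 3 without KO replicate 1 or 2, and with 5′ ends alone it was 0. The count of 0 became 2 without KO replicate 2 or WT replicate 2 and 1 without KO replicate 3. At q 0.01 both counts were 0 (against 0.0228% and 0.00457%). The p130-WT replicate 1 library was of batch 2 and all other p130 libraries of batch 3, within which 2 genes had p130 peaks in every WT and no KO library. The STAG2 and LIN54 libraries were all of batch 1.

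Most summits lay at the start of the gene. Among the 43 genes with a strand, all 62 STAG2 summits at q 0.01 and all 7 of p130 lay at the 5′ end, as did 82 of 84 for LIN54 (97.6%), against 95.1%, 97.1% and 96.6% for all genes. Deposited p130 peaks were at the 5′ end in 76.2% of cases, against 67.0% for all genes, and deposited STAG2 peaks in 95.1%, against 80.2%. Of the summits at q 0.01, 60 of 62 for STAG2, 80 of 84 for LIN54 and all 7 for p130 lay within 500 bp of a RefSeq start site. This follows largely from the rule, which took only summits within 500 bp of a gene end. The matching shares and positions over all genes were not computed. The median position of these nearer summits was -98.5 bp from the start site for STAG2, -99.0 for LIN54 and -106 for p130. At Psma3 the q 0.01 summits were at the 5′ end in the gene table, but at -5602 to -5011 bp from the RefSeq start site. Of the 7 p130 summits, 6 were at Psmc4 and 1 at Psmb3, so the p130 values here are nearly those of 1 gene. The 2 LIN54 exceptions were at Psma4 and Psmc1, with summits 7199 and 12718 bp past the start site, at the other end of the gene.

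**Figure D4:**
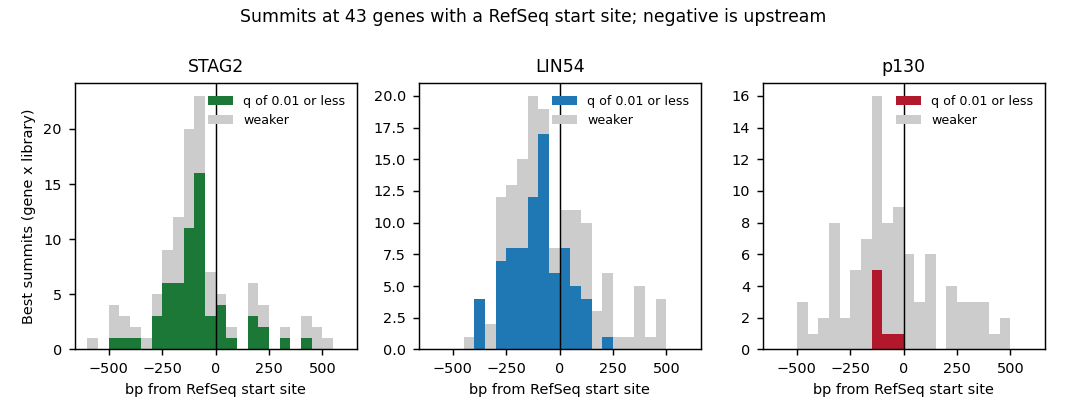
Position of the best summit relative to the RefSeq start site (x axis, bp, negative upstream) for the 43 genes with a strand, by antibody, as counts of gene and library pairs (y axis). Coloured bars are summits at q of 0.01 or less and grey bars weaker ones; the medians of the coloured bars are -98.5, -99.0 and -106 bp.

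Genes that work with the proteasome but lie outside the symbols were counted in the same way. Of 24 listed partner genes, 15 had a STAG2 peak in every WT library (against 35.0% of all genes) and 11 in every KO library (against 25.5%). A LIN54 peak was present at 10 and 17 (against 23.8% and 35.5%), and a p130 peak at 1 and 3 (against 14.3% and 8.88%). At q 0.01 the STAG2 counts were 7 and 2 (against 12.6% and 1.89%), the LIN54 counts 4 and 12 (against 4.71% and 15.8%) and the p130 counts 0 and 0 (against 0.759% and 0.681%). The 4 with LIN54 in every WT library were Vcp, the segregase that hands ubiquitinated proteins to the proteasome, Nfe2l1 and Nfe2l2, transcription factor genes known for switching on proteasome genes, and Zfand2a. Vcp had LIN54 folds of 11, 10.6 and 13.2 in WT and 14.9 and 19.1 in KO, and Nfe2l1 had 5.3, 7.57 and 6.52 in WT and 16.5 and 15.9 in KO. In both genes the KO values were above the WT values. Nfe2l2 had STAG2 folds of 12 and 18.2 in WT, the highest of the list in both libraries, and 4.38 and 5.61 in KO, where Vcp had 3.7 and 6.01. Ufd1, a cofactor of Vcp, had STAG2 peaks at q 0.01 in both KO libraries, as had Nfe2l2, and p130 folds of 4.42 and 5.7 in 2 of 3 WT libraries and 5.25, 5.38 and 2.76 in KO.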

How the data were processed

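Peak lists of 15 CUT&RUN libraries of peeled mouse urothelium were used. The labels list 17 samples, and the 2 pMNase control samples were not analysed here. The submitters' processing notes name the tools MACS2, Bowtie2 and bcl2fastq and the build mm10. Versions, settings and any control library in the peak calls are not given in the sources used here. Each deposited peak has a fold, the ratio of the pileup at its summit to the local background of that library, with a constant added to both. Beside it stand the deposited −log10 p and −log10 q and a score, which is a rescaled −log10 p and was not used, and other deposited columns give the position and the summit. Peaks were called per library, and the authors' values served to describe, rank and filter the peaks of each library. Folds of WT and KO libraries were also set side by side as a description. They were not adjusted for the level of each library and were not tested between genotypes.

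A gene had a peak when a summit fell no more than 500 bp from either of its ends in RefSeq's gene table (GRCm38.p6, which is mm10), which gives no strand. Strands, start sites and sequences came from the RefSeq promoter table, which held 43 of the 51 genes. At most 1 peak, that with the lowest p, was kept per gene and library. The fragments at a summit and the background were recovered from its fold and p, with the fold taken as their ratio after adding 1 to both. In samples of 2000 summits per library, 100.0% gave a whole fragment count to within 0.0002 on the log10 scale.

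The library was the unit. Between genotypes, only the percent of all gene ends with a peak was tested, by a two-sided exact permutation test with Benjamini-Hochberg adjustment over the 3 antibodies. The labels do not say whether replicates were separate animals, so the p-values measure the spread between these libraries, which may be technical. Genes were named by rule: the 5 with q 0.01 in most libraries, the 5 with the best mean percentile in WT per antibody, and those marked in 1 genotype alone. The rule also took those with fewest libraries, the leading gene of each role and the tissue-restricted genes. It further took the gene on the X chromosome and those not listed under a proteasome role. Other genes serve as examples of their role, picked with their values in view. The members and the gene lists were chosen with earlier results of these data known. Alternatives were q 0.01, windows of 250 and 1000 bp, the 5′ end alone, batch 3 alone and genes listed under a proteasome role alone. A replicate block and leaving out libraries in turn were further alternatives. Scripts ran under Python 3.11.15 with SciPy 1.17.1, pandas 2.3.3, Matplotlib 3.10.9 and NumPy 2.4.6, and were tested on simulated data.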

Additional observations from a re-analysis of the deposited data

Results flagged for a closer look

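The share of the 51 genes with a peak at q 0.01 moved in opposite directions between genotypes for 2 antibodies. For STAG2 the mean difference, KO minus WT, was -37.3 percentage points, and both KO libraries lay below both WT libraries. For LIN54 it was 19.9 percentage points, and both KO libraries lay above all 3 WT libraries. The difference between the antibodies was not tested. The number of q 0.01 peaks in the lists had the same order: 25859 and 13346 in STAG2-WT against 1239 and 6777 in STAG2-KO, and 4903, 6617 and 2166 in LIN54-WT against 15787 and 13044 in LIN54-KO. The part of these totals in the shares was not tested. With deposited peaks the LIN54 shares of the genotypes overlapped.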

How the results depend on the processing

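Counts of genes depended most on the peak threshold. With q 0.01 in place of the deposited peaks, the genes marked in every library numbered 16 for STAG2-WT, 3 for STAG2-KO, 8 for LIN54-WT, 19 for LIN54-KO, 1 for p130-WT and 1 for p130-KO, those in WT alone 11 for STAG2, 0 for LIN54 and 0 for p130, those in KO alone 4 for LIN54, and those in all 15 libraries 0. With a window of 250 bp, the counts were 13 for STAG2-KO, 6 for p130-WT, 2 for p130-KO, 1 for STAG2 in KO alone, 2 for LIN54 in WT alone and 1 for LIN54 in KO alone. With 1000 bp, they were 21 for p130-WT, 14 for p130-KO, 1 for STAG2 and 1 for LIN54 in KO alone, 0 for p130 in WT alone and 5 for all 15 libraries. The difference in LIN54 peaks over all gene ends changed sign with that window, to -0.715 percentage points (exact permutation p = 0.7), and the cause was not tested. With the 5′ end alone, which 43 genes have, the counts were 2 for p130-KO, 1 for STAG2 in WT alone, 0 for LIN54 in WT alone, 1 for LIN54 in KO alone and 0 for p130 in WT alone. With batch 3 alone, p130 in WT alone had 2. Except at q 0.01, the matching counts over all genes were not computed. These changes therefore cannot be read as particular to the 51 genes. The other 54 values moved by less than 1.5 times or kept their direction and side of the threshold.

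Leaving out 1 library mostly raises a count, since fewer libraries have to share a peak. The counts in every library then ranged over 36 to 42 for STAG2-WT, 31 to 36 for STAG2-KO, 28 to 34 for LIN54-WT, 39 to 41 for LIN54-KO, 14 to 21 for p130-WT and 9 to 13 for p130-KO. At q 0.01 they ranged over 21 to 32, 3 to 12, 8 to 14, 24 to 25, 1 to 1 and 1 to 1 in the same order, a setting added after the data had been seen. Counts in WT alone ranged over 3 to 9 for STAG2, 1 to 3 for LIN54 and 1 to 3 for p130, and in KO alone over 1 to 3, 2 to 4 and 0 to 2. At q 0.01, STAG2 in WT alone ranged over 11 to 23 and LIN54 in KO alone over 4 to 8. The count for all 15 libraries ranged over 1 to 3, with 2 without p130-KO replicate 1 and 3 without p130-KO replicate 3. For all of these counts with a library left out, the matching counts over all genes were not computed. The differences over all gene ends ranged over -13.2 to -5.66 for STAG2, 0.158 to 2.34 for LIN54 and -11.2 to -6.94 for p130.

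Whether replicate numbers, taken from the titles (the library name of STAG2-WT replicate 2 has 3), pair the libraries could not be settled. The correlation of same-numbered deviations over genes was 0.0463 for STAG2, 0.0105 and 0.0094 for LIN54, and -0.00694, -0.00338 and 0.00951 for p130. With 2 STAG2 libraries per genotype the deviations mirror each other, so differently numbered ones gave -0.0463. With the replicate block, the differences over all gene ends were -9.41 for STAG2 (exact sign-flip permutation p = 0.5), 0.251 for LIN54 (exact permutation p = 0.5) and -8.65 for p130 (exact permutation p = 0.25), with no call changed. With 2 or 3 libraries per group, the exact permutation test between genotypes could not reach 0.05, and tests that assume a distribution of the values were not run. Also, a peak of few fragments may be missed in any list.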
